A study of Mus musculus with 8 samples.

Results

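Aminoacyl tRNA synthetases are the enzymes that attach each amino acid to its own tRNA, the step that fixes the genetic code before the ribosome reads it. In 7 day old mice, 24 h after lipopolysaccharide (LPS), the RNA of all 20 cytosolic synthetases measured was higher in CD11b(+) cells of the brain than after saline. The increases ran from 0.33 to 1.05 on the log2 scale, with a median of 0.70, against a median of 0.02 over all genes, of which 27.8% rose and 21.5% fell. Of the 16 mitochondrial synthetases 12 rose, 1 fell and 3 did not pass the test, with a median of 0.47. The members were chosen by name. They are the probes whose gene name is that of a synthetase, 36 genes among the 22509 tested and 87 probes among 56599. The rule itself uses gene names and no measured value.

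The samples came from male C57BL/6N mice, taken 24 h after an injection of saline or of LPS, a glycolipid that coats Gram-negative bacteria. Brains from 2 mice of the same treatment went into each tube, CD11b(+) cells were taken with magnetic beads, and 4 tubes per treatment gave 4 saline and 4 LPS arrays. CD11b is an integrin subunit of microglia and of other myeloid cells. The dose and the route of injection are not given in the sources used here. Levels below are log2 processed signal minus the 75th percentile of the same array, so 0 is the level of that percentile. Changes are log2 LPS minus saline ± standard error (SE, n = 4 arrays per group). A gene rose or fell where limma's p, adjusted over all genes by the Benjamini-Hochberg method, was under 0.05.

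As background, mammals carry separate nuclear genes for most of the cytosolic enzymes and of those that work inside mitochondria, the latter marked by a final 2 in the symbol. Gars and Kars each serve both compartments, and there is no separate mitochondrial enzyme for glutamine. Leucyl, isoleucyl, methionyl, glutaminyl, arginyl, lysyl, aspartyl and glutamyl-prolyl synthetases assemble with the scaffold proteins Aimp1, Aimp2 and Eef1e1 into the multisynthetase complex. Many cytosolic synthetase genes are targets of ATF4, the transcription factor made when amino acids are short or the endoplasmic reticulum is stressed, and Wars is also known as a gene induced by interferon gamma.

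The 10 microglial markers had a summed linear level of 1528 to 1807 after saline and 1544 to 1732 after LPS, in multiples of each array's 75th percentile (1 rose, 4 fell). P2ry12 and Tmem119, which define microglia, were well above background on all 8 arrays. Markers of other myeloid cells differed between the groups. Among all genes tested 27.8% rose and 21.5% fell, the shares to set beside the counts here. The 5 monocyte markers summed to 12.1 to 16.03 after saline and 42.8 to 76.7 after LPS (4 of 5 rose), and the 8 neutrophil markers to 69.7 to 164 and 168 to 297 (2 of 8 rose). The neutrophil markers had a median change of -0.05, with 3 of 8 above 0, so most of them did not share the larger sum. The 6 border macrophage markers summed to 470 to 599 and 309 to 428 (3 of 6 fell). Summed levels of the 5 tested lymphocyte markers were 1.60 to 2.54 and 2.92 to 3.59 (3 rose, 1 fell). Those of 5 astrocyte markers were 12.4 to 15.5 and 6.59 to 8.69 (4 fell), those of 5 oligodendrocyte lineage markers 8.35 to 8.77 and 5.41 to 6.42 (4 fell), those of 5 neuronal markers 11.2 to 15.8 and 7.51 to 13.2 (1 fell), and those of 5 endothelial and pericyte markers 16.9 to 23.4 and 11.98 to 15.4 (3 fell). The part of these cells in the results below was not tested. In such pools more cells of a type and more RNA per cell cannot be told apart.

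Each of the 20 cytosolic synthetases had a mean level above 0, and among the 10835 genes with such a level 43.1% rose, with a median change of 0.20. The 20 summed to a linear level of 175.6 to 207 after saline and 261 to 359 after LPS, so that the groups did not overlap. For 19 of the 20 genes all 4 LPS arrays lay above all 4 saline arrays, a separation seen in 25.8% of all genes. Nars, asparaginyl tRNA synthetase, was the exception. Scaling to each array's median in place of its 75th percentile shifts all genes of an array together. The median of all genes was then 0.24, and the cytosolic median stood 0.68 above it, which such a shift cannot alter. With quantile normalization the median of all genes was 0.00 and the cytosolic median stood 0.54 above it.

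Vars, which charges tRNA with valine, had the largest increase. Its level was 1.38, 1.38, 1.22 and 1.19 on saline arrays 1 to 4 and 2.54, 2.40, 2.06 and 2.39 on LPS arrays 1 to 4, and the lowest LPS array stood well clear of the highest saline array. The change was 1.05 ± 0.11, a 2.08-fold difference (adjusted p = 0.000606). Its probe lies at chr17:35152339-35152398 (mm9, the build of the array's probe coordinates).

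Gars, the glycine enzyme of both cytosol and mitochondria, followed closely. It measured 5.08, 4.94, 4.84 and 4.77 on saline arrays 1 to 4 and 6.19, 6.01, 5.61 and 6.01 on LPS arrays 1 to 4. The change was 1.05 ± 0.13 or 2.07-fold (adjusted p = 0.000976, probe at chr6:55029377-55029436, mm9), and LPS 3 was again the lowest of the treated arrays. Kars, the lysine enzyme that also serves both compartments, rose by 0.92 ± 0.12.

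Iars, the isoleucine enzyme of the multisynthetase complex, showed the tightest saline group of these members. Its values were 2.64, 2.62, 2.54 and 2.62 on saline arrays 1 to 4 and 3.67, 3.54, 3.31 and 3.58 on LPS arrays 1 to 4. It rose by 0.92 ± 0.09 or 1.90-fold (adjusted p = 0.000426, probe at chr13:49829328-49829387, mm9).

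**Figure D1:**
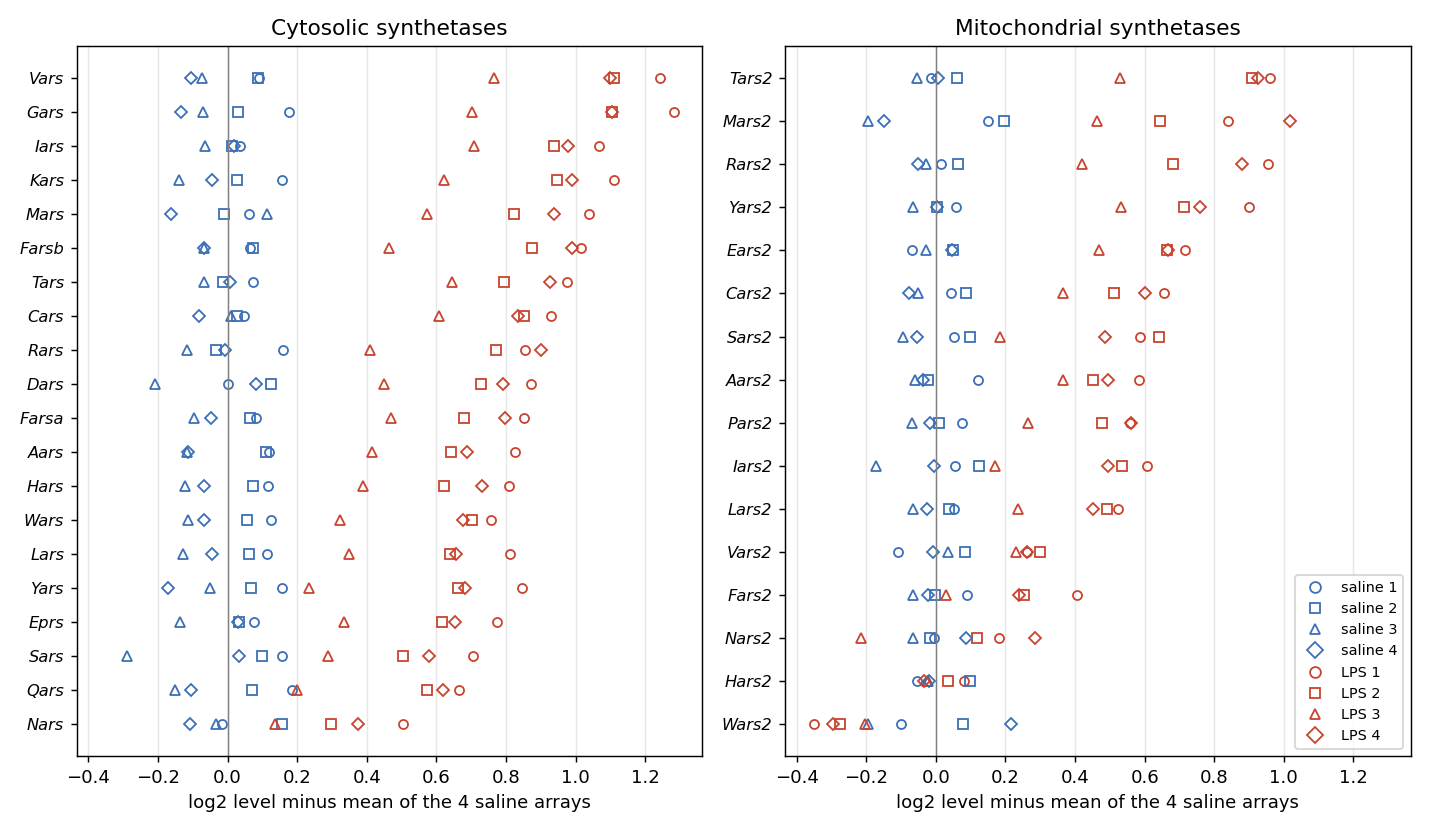
Log2 level of each synthetase on each array, minus the mean of the 4 saline arrays, with cytosolic genes on the left and mitochondrial genes on the right; blue symbols are saline arrays, red symbols LPS arrays, and a symbol's shape gives its number. Red lies right of blue with no overlap in 19 of 20 cytosolic rows, the LPS 3 triangle is the lowest red symbol in all 20 of them, and Wars2 is the single row in which all red symbols lie left of blue.

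The 8 synthetases of the multisynthetase complex all rose, with a median of 0.72 and a range of 0.51 to 0.92. Beside Iars and Kars these were Mars for methionine (0.84 ± 0.12), Rars for arginine (0.73 ± 0.12), Dars for aspartate (0.71 ± 0.12), Lars for leucine (0.61 ± 0.11), Eprs for glutamate and proline (0.59 ± 0.11) and Qars for glutamine (0.51 ± 0.13). The other 12 cytosolic synthetases had a median of 0.67 over a wider range, 0.33 to 1.05. The 3 scaffold proteins rose as well: Aimp2 by 0.95 ± 0.11, Aimp1 by 0.61 ± 0.13 and Eef1e1 by 0.56 ± 0.13. By structural class, the 9 class I enzymes had a median of 0.73 and the 10 class II enzymes 0.70, Eprs joining a domain of each class.

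Outside the complex, Tars for threonine rose by 0.83 ± 0.09, and both subunits of the phenylalanine enzyme rose, Farsb by 0.84 ± 0.13 and Farsa by 0.70 ± 0.10. Cars for cysteine rose by 0.81 ± 0.09, Aars for alanine by 0.64 ± 0.11, Hars for histidine by 0.64 ± 0.11, Yars for tyrosine by 0.61 ± 0.14 and Sars for serine by 0.52 ± 0.13. Nars had the smallest change of the cytosolic genes. Its level was 2.32, 2.49, 2.30 and 2.22 on saline arrays 1 to 4 and 2.83, 2.63, 2.47 and 2.71 on LPS arrays 1 to 4, so LPS 3 lay below saline 2. The change was 0.33 ± 0.10 with an adjusted p of 0.0259, and it was not called in 6 of the 8 fits that left out 1 array, nor with quantile normalization (a change of 0.15), with the percentile over probes well above background (0.17) or with the array's median signal as a covariate (0.17).

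Wars, the tryptophan enzyme, is the member best known as an interferon gamma target. Its level was 4.34, 4.27, 4.10 and 4.15 on saline arrays 1 to 4 and 4.97, 4.91, 4.54 and 4.89 on LPS arrays 1 to 4, with no overlap, and it rose by 0.62 ± 0.11 (adjusted p = 0.00329), below the median of the cytosolic genes. Of 13 interferon gamma targets tested, 11 rose and 1 fell, with a median of 1.42, where 27.8% of all genes rose and 21.5% fell. The guanylate binding protein Gbp2 rose by 3.34 ± 0.23, while Ciita, which switches on MHC class II transcription, fell by 0.97 ± 0.13. Cxcl9, a T cell chemokine, rose by 4.96 ± 0.56, but only 2 of 4 saline arrays were well above background for it.

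Promoter sequences of 27 of the 36 members were found among RefSeq promoters of assembly GRCm38.p6, 250 bases before to 50 after an annotated start. The core of the amino acid response element, the sequence through which ATF4 dimers act, was searched as TGATGNAA on both strands. It occurred in 5 of 13 cytosolic members, Aars, Gars, Iars, Tars and Yars, in 0 of 14 mitochondrial members, and in 3.97% of all 32851 promoters of that length. Counted by gene, as the members are, the share was 4.51% of 27025 genes. The matched sequences of Gars, Iars, Tars and Yars are shown because these genes share the core. The 5 genes with a match changed by 0.61 to 1.05. Capitals mark the match, and the match reads TTGCATCA or TTTCATCA where the core is on the opposite strand.
Gars: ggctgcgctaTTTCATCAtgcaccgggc
Iars: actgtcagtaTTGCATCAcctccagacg
Tars: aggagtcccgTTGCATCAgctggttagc
Yars: cgagctcagcTGATGCAAcccgacggga
In GRCm38.p6 these windows are chr6:55037961-55037988 (plus strand, 30 bases before the start), chr13:49682127-49682154 (plus strand, 7 after), chr15:11399656-11399683 (minus strand, 15 before) and chr4:129189896-129189923 (plus strand, 3 after). The 8 cytosolic members with a promoter and no match, Dars, Eprs, Farsa, Farsb, Kars, Mars, Qars and Sars, changed by 0.51 to 0.92, which overlaps the range of the 5 with a match. A match describes letters in a window, and no binding was measured in these samples.

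Threonine is shown as a pair with both promoters on hand, since Tars and Tars2 had changes of 0.83 and 0.83 while the letters were found in the window of Tars and not in that of Tars2. Arginine, whose partners also differed by 0.00, has no promoter entry for Rars. The 250 bases before each annotated start are printed for that reason, with the match in capitals.
Tars: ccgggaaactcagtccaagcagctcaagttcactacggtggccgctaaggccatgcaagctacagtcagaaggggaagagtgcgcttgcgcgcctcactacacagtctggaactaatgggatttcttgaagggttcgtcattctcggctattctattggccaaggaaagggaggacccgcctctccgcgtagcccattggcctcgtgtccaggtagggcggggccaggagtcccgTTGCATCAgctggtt
Tars2: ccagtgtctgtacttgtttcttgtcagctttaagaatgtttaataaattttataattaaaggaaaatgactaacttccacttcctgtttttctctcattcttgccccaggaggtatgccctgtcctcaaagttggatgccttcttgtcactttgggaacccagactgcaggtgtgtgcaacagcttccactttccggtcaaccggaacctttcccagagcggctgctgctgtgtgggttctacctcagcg
They lie at chr15:11399659-11399908 and chr3:95754978-95755227 (GRCm38.p6, both minus strand). Another 3 motifs were searched. The E-box CACGTG was in 4 of 13 cytosolic promoters (Aars, Farsb, Iars and Tars), 1 of 14 mitochondrial ones (Ears2) and 7.15% of all promoters. The STAT motif TTCNNNGAA was in 2 of 13 (Aars and Kars), 1 of 14 (Nars2) and 8.30%, and the interferon response core, TTTC on either side of any pair of bases, in 1 of 13 (Qars), 0 of 14 and 3.44%. Counted by gene, the shares for the E-box, STAT motif and interferon response core were 8.09%, 9.55% and 3.99%. All were searched on both strands, and none of these matches overlapped an amino acid response match. Cars, Hars, Lars, Nars, Rars, Vars, Wars, Hars2 and Pars2 had no entry.

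Among the mitochondrial synthetases 12 of 16 rose and 1 fell, and 12 had all LPS arrays above all saline arrays. Their summed level was 39.5 to 42.4 after saline and 51.2 to 65.8 after LPS. Below the 3 described next came Yars2 (0.73 ± 0.09), Ears2 for glutamate (0.63 ± 0.08), Cars2 (0.53 ± 0.09), Sars2 (0.48 ± 0.11), Aars2 (0.47 ± 0.08), Pars2 for proline (0.47 ± 0.09), Iars2 (0.45 ± 0.11), Lars2 (0.43 ± 0.08) and Vars2 (0.26 ± 0.07). Fars2 (0.23 ± 0.09, adjusted p = 0.0664), Nars2 (0.09 ± 0.11, adjusted p = 0.508) and Hars2 (0.01 ± 0.07, adjusted p = 0.875) did not pass the test. Fars2 was called higher with slide column as a block (adjusted p = 0.0250), with normexp (0.0406), with a variance trend (0.0438) and without LPS 3 (0.0122). The sign of the change of Nars2 and of Hars2 turned under other scalings. With the mean of a gene's probes in place of the brightest, Iars2, Lars2, Pars2 and Sars2 were no longer called and 8 of 16 rose. In that setting 5788 of all 22509 genes rose.

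Tars2, the mitochondrial threonine enzyme, had the largest increase of the 16. It measured 3.36, 3.43, 3.32 and 3.38 on saline arrays 1 to 4 and 4.33, 4.28, 3.90 and 4.30 on LPS arrays 1 to 4, the LPS 3 array standing below the other 3. The change was 0.83 ± 0.11 or 1.78-fold (adjusted p = 0.000989, probe at chr3:95543899-95543958, mm9), and the cytosolic Tars, at 2.84, 2.75, 2.70 and 2.77 on saline arrays 1 to 4 and 3.74, 3.56, 3.41 and 3.69 on LPS arrays 1 to 4, had a change of 0.83 ± 0.09.

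Mars2 for methionine measured -3.45, -3.41, -3.80 and -3.75 on saline arrays 1 to 4 and -2.76, -2.96, -3.14 and -2.58 on LPS arrays 1 to 4. The groups did not overlap, and the change was 0.74 ± 0.15 (adjusted p = 0.00449). Mars2 had the lowest level of all members, and its change ran from 0.27 to 0.96 over the 12 alternative settings, with the call kept in each. Its partner Mars measured 0.88, 0.81, 0.93 and 0.66 on saline arrays 1 to 4 and 1.86, 1.64, 1.39 and 1.75 on LPS arrays 1 to 4.

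Rars2 for arginine measured 1.90, 1.95, 1.86 and 1.84 on saline arrays 1 to 4 and 2.84, 2.57, 2.31 and 2.77 on LPS arrays 1 to 4, with a change of 0.73 ± 0.12 (adjusted p = 0.00208). For the cytosolic Rars the values were 2.73, 2.54, 2.45 and 2.56 on saline arrays 1 to 4 and 3.42, 3.34, 2.98 and 3.47 on LPS arrays 1 to 4. In both genes LPS 3 was lowest among the treated arrays and still above every saline array.

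Vars2 and Iars2, the partners of the most increased cytosolic genes for valine and isoleucine, had smaller changes. Vars2 measured -0.42, -0.22, -0.27 and -0.32 on saline arrays 1 to 4 and -0.05, -0.01, -0.08 and -0.04 on LPS arrays 1 to 4, a change of 0.26 ± 0.07 (adjusted p = 0.0140) with no overlap. Iars2 measured 0.49, 0.55, 0.26 and 0.43 on saline arrays 1 to 4 and 1.04, 0.97, 0.60 and 0.92 on LPS arrays 1 to 4, a change of 0.45 ± 0.11 (adjusted p = 0.0127), and its lowest LPS array lay just above its highest saline array.

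Wars2, the mitochondrial tryptophan enzyme, was the only member called lower after LPS. Its level was -1.57, -1.39, -1.66 and -1.25 on saline arrays 1 to 4 and -1.82, -1.74, -1.67 and -1.76 on LPS arrays 1 to 4, and the highest LPS array lay just below the lowest saline array, a separation seen in 18.9% of all genes. It fell by 0.28 ± 0.10 (adjusted p = 0.0476), the call ended under 8 of 12 other settings and in 6 of 8 fits without 1 array, and a second probe for the same transcript read a change of -0.12 ± 0.15 with an adjusted p of 0.520.

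The 17 pairs of a cytosolic and a mitochondrial gene for the same amino acid were compared within each array, as the cytosolic minus the mitochondrial log2 level. A shift of a whole array cancels in this difference. The cytosolic gene changed more in 15 pairs, by 0.00 in threonine and arginine, and the mitochondrial gene in 2. Eprs and Fars2 each stand in more than 1 pair. All 20 cytosolic but 12 of 16 mitochondrial genes had a mean level above 0, where changes ran higher in general (median 0.20, against 0.02 over all genes). An exact two-sided permutation test over the 70 splits of 8 arrays cannot give a p below 0.0286, and adjusted over the 17 pairs no p was below 0.0540, so no pair passed 0.05. In 9 pairs all 4 LPS differences lay above all 4 saline differences, each with an exact permutation p of 0.0286. Both phenylalanine pairs, which share Fars2, are among them. Of single genes 25.8% separated in that direction, and the share among differences of other gene pairs was not computed.

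The largest gap was that of tryptophan, where Wars changed by 0.90 ± 0.17 more than Wars2, followed by valine with 0.79 ± 0.12 and histidine with 0.62 ± 0.10. For phenylalanine the gap was 0.60 ± 0.07 with Farsb and 0.47 ± 0.04 with Farsa. Isoleucine had a gap of 0.47 ± 0.05, cysteine of 0.27 ± 0.03, leucine of 0.19 ± 0.05 and proline, as Eprs against Pars2, of 0.13 ± 0.04.

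Other partners lay close together. For threonine the difference was 0.00 ± 0.06, for arginine 0.00 ± 0.07, for serine 0.04 ± 0.09 and for methionine 0.10 ± 0.13. Alanine (0.17 ± 0.06) and asparagine (0.24 ± 0.10) had overlapping groups. The change of Yars2 exceeded that of Yars (-0.12 ± 0.08) and the change of Ears2 that of Eprs (-0.03 ± 0.07), both with overlap. A p that misses the threshold does not show that such partners act alike.

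**Figure D2:**
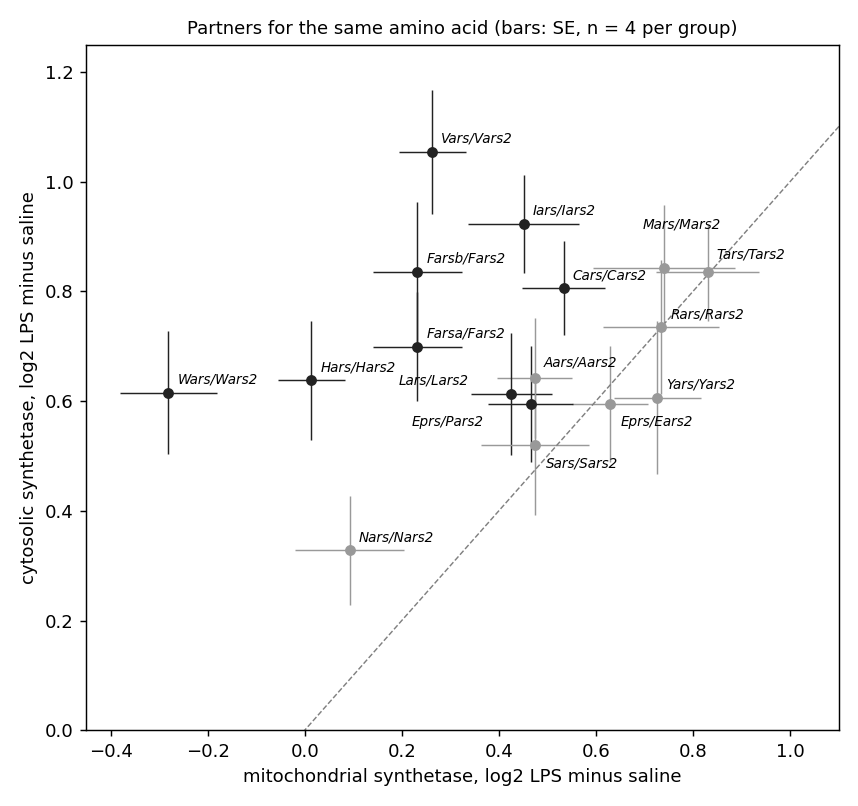
Log2 change of each cytosolic synthetase (vertical axis) against that of its mitochondrial partner for the same amino acid (horizontal axis), LPS minus saline, with standard errors as bars; black points are the 9 pairs whose within-array differences did not overlap between groups, grey points the other 8, and the dashed line marks equal change. Of the 17 points 15 lie on or above the line, Wars/Wars2 and Vars/Vars2 farthest from it, and Rars/Rars2 and Tars/Tars2 lie on it.

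A gene's level above is that of its brightest probe. Of the 87 probes for members 80 were bright enough to test. They are counted here by the transcript record each was designed on, and the difference between the kinds of record was not tested. All 34 probes of cytosolic genes with a RefSeq transcript rose, against 29.3% of all such probes on the array. Of the 7 tested probes of cytosolic genes designed on another transcript record, mostly Ensembl transcripts, none rose and 1 fell, while 17.9% of such probes rose and 25.0% fell over the array. Among mitochondrial genes 21 of 32 RefSeq probes and 2 of 7 others rose. Where such a probe lies in the transcript was not analysed here.

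Aars is the clearest case of disagreement. Its brightest probe, designed on the RefSeq transcript, read 3.81, 3.80, 3.57 and 3.57 on saline arrays 1 to 4 and 4.51, 4.33, 4.10 and 4.37 on LPS arrays 1 to 4, all LPS arrays above saline, a change of 0.64 ± 0.11 (adjusted p = 0.00246). A second probe, designed on an Ensembl transcript of the same name, read -2.03, -1.62, -1.38 and -1.54 on saline arrays 1 to 4 and -2.72, -2.70, -2.45 and -2.66 on LPS arrays 1 to 4. It was lower on every LPS array than on any saline array and fell by 0.99 ± 0.14 (adjusted p = 0.00146 in the fit of every probe). With the mean of its probes Aars changed by -0.054, so the direction for this gene rests on the RefSeq probe. It was the only member with probes called in both directions.

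In all, 25 members had more than 1 tested probe. In 16 of them every probe had a change above 0, in 10 every probe rose, and in 9 at least 1 probe lay below 0. Rars2 had 4 probes and Tars2 4, and all of them rose. Iars2 had RefSeq probes at 0.45 and 0.48 and 3 others between -0.41 and 0.15 that did not pass the test, and its mean over probes was 0.06. Lars2 had RefSeq probes at 0.43 and -0.20, the latter not past the test, and a mean of 0.11.

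**Figure D3:**
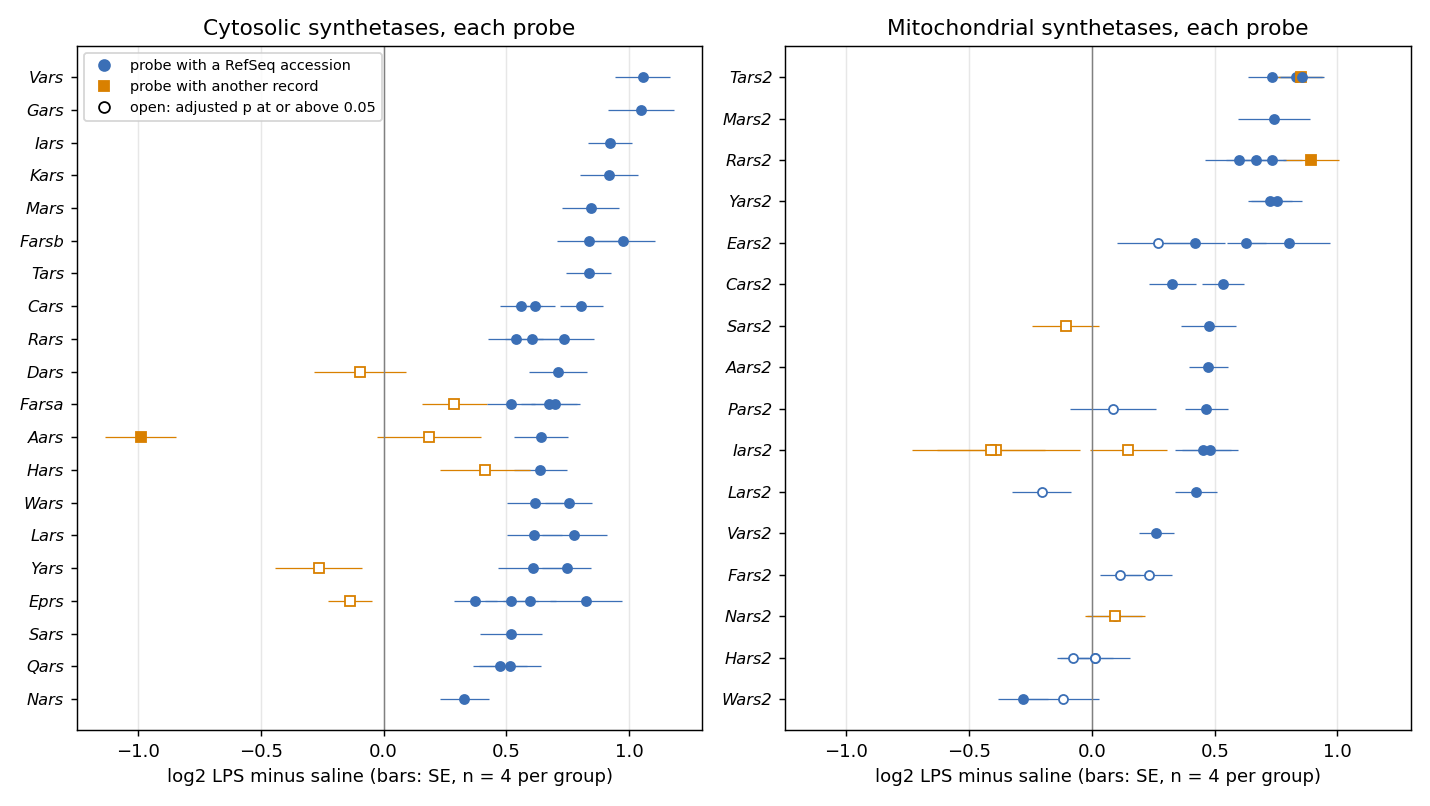
Log2 change of every tested probe of each synthetase gene, LPS minus saline with standard errors, on the horizontal axis; circles are probes with a RefSeq accession, squares probes with another record, and open symbols did not pass the test. All 34 blue circles of the cytosolic panel are filled and right of 0, and the filled square far left is the second Aars probe, at -0.99.

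The arrays kept much the same order over the members. Averaged over the 20 cytosolic genes, LPS arrays 1 to 4 stood 0.90, 0.74, 0.45 and 0.80 above the saline mean, and saline arrays 1 to 4 at 0.10, 0.06, -0.10 and -0.06. LPS 3 was the lowest LPS array for 20 of 20 cytosolic and 14 of 16 mitochondrial genes, and saline 3 the lowest saline array for 14 and 11. Those same arrays had the highest median processed signal of their groups, 17.3 for LPS 3 and 21.5 for saline 3, where the others were 11.7 to 13.8 and 15.5 to 18.2. Both arrays also lay in slide column 3, so for them median signal and position on the slide cannot be told apart. With each array's median signal as a covariate 17 of 20 cytosolic genes rose (background 18.4%), with a median of 0.50, and 11 mitochondrial genes with a median of 0.30. Nars, Qars and Yars were the 3 no longer called. Without LPS 3 the medians were 0.79 and 0.54, and 20 and 13 genes rose (background 32.5%).

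**Figure D4:**
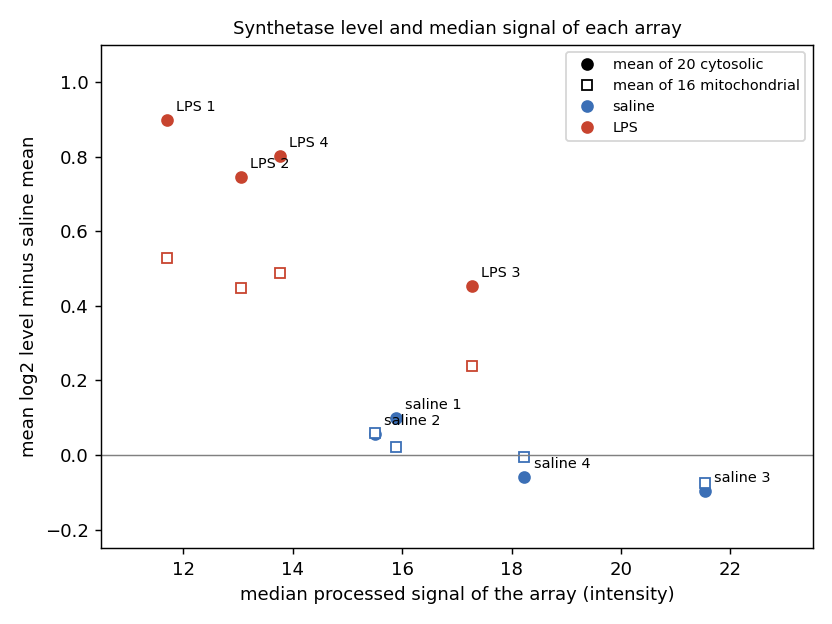
Mean over the 20 cytosolic and the 16 mitochondrial synthetases of the log2 level minus the saline mean (vertical axis) against the median processed signal of each array (horizontal axis), with 1 point per array and set. Within each treatment the array with the highest median signal, number 3, has the lowest mean, and both arrays numbered 3 shared a slide column. The 4 LPS arrays lie above the 4 saline arrays in both sets.

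The lists of genes that work beside the synthetases each held more genes that rose than fell, as did the genes tested as a whole. Over all genes 27.8% rose and 21.5% fell, and 43.1% rose among those with a mean level above 0. Of 6 cytosolic elongation factors 5 rose: Eif5a (1.01 ± 0.15), Eef1g (0.97 ± 0.13) and Eef1d (0.79 ± 0.14) had the largest changes. Eef1a1, which carries charged tRNA, measured 0.10 ± 0.10 and did not pass the test. The list's median was 0.58, and it was 0.30 with the array's median signal as a covariate and 0.24 under quantile normalization. The count of 5 became 3 without LPS 1, 2 or 4, without saline 3 or 4, with no filter, with the percentile over probes well above background, with that covariate and under quantile normalization, where 1 also fell. Of 10 mitochondrial translation factors 6 rose and 1 fell, with a median of 0.42. The elongation factors Tufm (0.93 ± 0.14), Gfm1 (0.81 ± 0.12) and Tsfm (0.57 ± 0.10) led, and the initiation factor Mtif2 fell by 0.22 ± 0.07, a sign that turned (0.10) when a gene's probes were averaged. The Mtif2 call also ended with scaling to the array median, no filter, slide row as a block and the median signal covariate. It ended too in fits without saline 2, 3 or 4 or LPS 1 or 4.

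Of 17 tested genes for maturing and exporting tRNA 14 rose (82.4%, against 27.8% of all genes) and none fell, with a median of 0.49. Of the 17, 15 had a mean level above 0, where 43.1% of all genes rose. The count became 10, with 1 fallen, with the percentile over probes well above background and with the array's median signal as a covariate. It was 11 under quantile normalization and in fits without LPS 1, 2 or 4 or saline 2, 3 or 4. Without saline 3, 1 gene also fell. The RNase P subunits Rpp40 (0.94 ± 0.13), Rpp30 (0.81 ± 0.12) and Pop5 (0.73 ± 0.14) rose the most, while the export receptor Xpot changed by 0.11 ± 0.09 and did not pass the test. Of 11 accessory and related genes 8 rose (72.7%), with a median of 0.35. That count was 4 without LPS 1 or LPS 4, 5 without LPS 2, saline 3 or saline 4, 4 with the percentile over probes well above background, 5 with the mean of a gene's probes and 2 with the array's median signal as a covariate. Aarsd1, related to the editing domain of alanyl synthetases, rose by 0.82 ± 0.13. Gatb, a subunit of the enzyme that makes mitochondrial glutaminyl tRNA, rose by 0.49 ± 0.11, and Sepsecs of selenocysteine tRNA synthesis by 0.48 ± 0.17. This last call ended in 11 other settings or fits without 1 array.

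Genes of ATF4 and the amino acid response were split. Of 25 tested 12 rose (48%) and 4 fell, with a median of 0.42. Over all genes 27.8% rose and 21.5% fell. Of the 25, 17 had a mean level above 0, and 43.1% of all genes with such a level rose, a share near that of this list. The list's median was 0.25 without LPS 3, 0.64 when scaled to the array median, 0.27 with the percentile over probes well above background and 0.16 under quantile normalization. The number that fell was 7 in both of the last settings, 6 with slide column as a block and 3 to 5 without 1 array. Asns, asparagine synthetase, rose by 1.94 ± 0.12, and the mitochondrial folate enzymes Mthfd2 and Shmt2 by 1.87 ± 0.13 and 1.81 ± 0.15. Asns measured 0.68, 0.67, 0.48 and 0.52 on saline arrays 1 to 4 and 2.68, 2.55, 2.20 and 2.67 on LPS arrays 1 to 4, with no overlap. Cth, which makes cysteine from cystathionine, fell by 1.26 ± 0.39 but was well above background on only 1 LPS array, and the stress factor Atf3 fell by 0.73 ± 0.10 and the cystine transporter Slc7a11 by 0.62 ± 0.17. The calls of Cth and Slc7a11 ended in some other settings, that of Atf3 in none. Atf4 itself measured 7.19, 7.25, 7.24 and 7.31 on saline arrays 1 to 4 and 7.14, 7.00, 7.13 and 7.13 on LPS arrays 1 to 4. All 4 LPS arrays lay just below saline, and the change of -0.15 ± 0.07 did not pass the test (adjusted p = 0.104). It was 0.07 when scaled to the array median, and it was called lower under quantile normalization and with a percentile over bright probes.

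**Figure D5:**
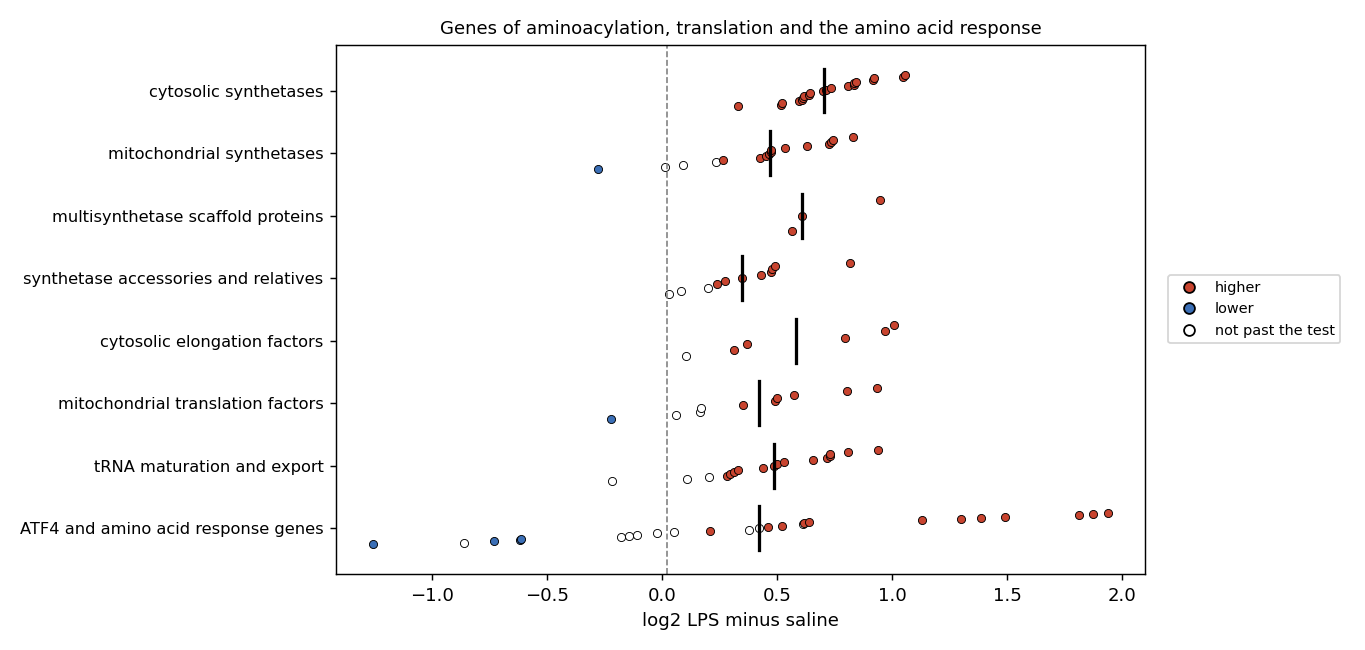
Log2 change of each gene, LPS minus saline (horizontal axis), in the synthetase lists and 6 related lists, 1 point per gene; red points rose, blue points fell, open points did not pass the test, a black bar is the list's median and the dashed line the median of all genes, 0.02. The cytosolic synthetases are the only list of more than 3 genes with every point red, and the ATF4 list spreads from -1.26 to 1.94.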

How the data were processed

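Gene expression of 8 samples was measured on 1-colour Agilent arrays of 1 slide, from 50 ng of total RNA labelled with Cy3, per the labels. Per the file headers and the submitters' processing notes the spots were read with Agilent Feature Extraction 12.0.3.1, and the deposited intensity values are background-subtracted and not scaled between arrays. The authors' deposited table holds log2 values that follow the scanner values of each array, are centred on each probe's median and have column medians of -0.07 to 0.08. It was used as an alternative.

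Control spots and outlier spots were left out and spots of a probe averaged; 6 probes with no usable spot were dropped and none was saturated. RefSeq accessions named 35402 of 56599 probes, symbols 9123, synonyms 25, and the file's own name served for 12049. The log2 signal was set relative to the 75th percentile of its array. A probe had to be well above background on 4 or more of the 8 arrays, and the brightest probe stood for its gene. Treatments were compared in limma 3.58.1 (lmFit, then eBayes; R 4.3.3) with p-values adjusted by Benjamini-Hochberg over 22509 genes, and in a second fit over all 35494 probes. Every member's brightest probe was well above background on all 8 arrays. Precision is limited by 4 arrays per group. Tubes were separate pools of 2 mice, and the labels give no replicate numbers. The numbers used here follow accession order, and each is also the number of the array's slide column.

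The members and lists were chosen with earlier results of these data known. Named with all arrays' values are the 3 largest increases and decreases per set, their partners, and members whose probes disagree; from other lists up to 3 risen and 3 fallen genes are named, and 1 list member and 1 sequence are not reported here. Nars, Xpot, Eef1a1, Atf4 and the values of Asns were added after their values were seen, as were the probe fit and the test of pairs. Alternatives covered scaling, background correction, filter, probe choice, variance model, slide row and column, array median signal, the deposited table and the omission of each array in turn. Figures used matplotlib 3.10.9 in Python 3.11.15.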

Additional observations from a re-analysis of the deposited data

Results flagged for a closer look

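The level of Tars2 on LPS 3 was 3.90, while the other 3 LPS arrays lay between 4.28 and 4.33. The gap to the nearest of them was 0.882 of the group's whole range, above Dixon's critical value for 4 samples. Of 72 groups of 4 arrays examined this was the only one to exceed it, and chance alone exceeds it in about 1 in 20 groups.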

How the results depend on the processing

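Under all 12 alternatives 16 of 20 cytosolic and 7 of 16 mitochondrial genes kept direction and call, and in all 8 fits without 1 array 19 and 13 did. The cytosolic count was 19 to 20 without 1 array and 17 to 20 over the alternatives. The cytosolic median was 0.65 to 0.79 without 1 array, 0.92 when scaled to the array median and 0.50 with each array's signal added as a covariate. The mitochondrial median was 0.44 to 0.54 without 1 array, 0.68 when scaled to the array median, 0.31 with the percentile over probes well above background, 0.27 with the mean of probes and 0.30 with the covariate. The count of mitochondrial genes that fell was 1, and 0 with the array median, quantile normalization, normexp, no filter, the mean of probes, a variance trend, slide column as a block or the covariate; without 1 array it was 0 to 1, being 0 without saline 1, 2 or 4 and without LPS 1, 2 or 4. The direction turned for Aars (-0.054, mean of probes), Nars2 (-0.063 with the percentile over bright probes and -0.061 with the covariate) and Hars2 (-0.14 with that percentile, -0.14 quantile, -0.0010 normexp, -0.016 mean of probes, -0.040 covariate, and -0.0081 to 0.047 without 1 array, being below 0 without LPS 1 and without saline 1). The mean of probes adds dimmer probes, and the cause of these turns in direction was not tested. The labels give no replicate numbers that pair arrays. Arrays of both treatments, 1 of each, shared every slide column, and with that column as a block 20 cytosolic and 13 mitochondrial genes rose (Fars2 was added) and 0 fell. More genes were called higher in general with that block, 7489 of 22509 against 6267 in the main fit.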
